A study of Mus musculus with 18 samples.

Results

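The heat shock proteins and DnaJ co-chaperones of the mouse were followed in denervated and sham-operated whisker pads. They were taken as every protein-coding gene whose symbol starts with Hspa, Hspb, Hspd, Hspe, Hsph, Hsp90, Dnaja, Dnajb or Dnajc. These were 74 of the 35150 genes with a value, with 343 transcripts between them. They comprised 8 Hspb genes, the family of the small heat shock proteins, 13 genes of the Hsp70 family (Hspa), 1 Hsp110 gene (Hsph1), 3 Hsp90 genes, the mitochondrial pair Hspd1 and Hspe1, and 45 DnaJ genes, of which 4 were Dnaja, 13 Dnajb and 28 Dnajc. The remaining 2, Hspbap1 and Hspbp1, carry the prefix only because they encode proteins that bind a heat shock protein. Hspb11 is also a heat shock protein by name only, since it encodes a subunit of the intraflagellar transport machinery.

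Biopsies of skin and muscle were punched from the rostral whisker pad on both sides of the face in 9 adult mice, with 3 mice killed at each of 1, 3, and 7 days after surgery. In every mouse 2 branches of the right facial nerve (buccal and superior marginal) were cut, and on the left the skin was opened and reclosed over an intact nerve. The lesion and the right side therefore cannot be told apart, and neither can the day and the mice killed on it. Mice of both sexes were used in the study, and the genotype of these 9 is not given in the sources used here. The 18 samples are 9 pairs of sides, in 6 groups of 3.

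The values are TPM (transcripts per a fixed total, a level scaled for transcript length), which had been normalized between samples by the authors, and here the value of a gene is the sum over its transcripts. The smallest steps between values gave an estimated 10200000 to 31800000 reads in a sample (median 14500000), and this depth bears on counting error only. Muscle and epidermis were both present in every sample. The summed TPM of 10 skeletal muscle fibre markers, such as Acta1 and Ckm, ran from 15306 to 25248 at day 1 except in 1 mouse (replicate 1), whose sides were at 4995 (sham) and 7417 (denervated). It ran from 16300 to 22645 at day 3 and from 26706 to 30906 at day 7. The summed TPM of 7 keratinocyte markers ran from 5854 to 10901. Day 1 replicate 1 thus stood apart in muscle content, and some of the results that rest on it are also given without it.

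**Figure D1:**
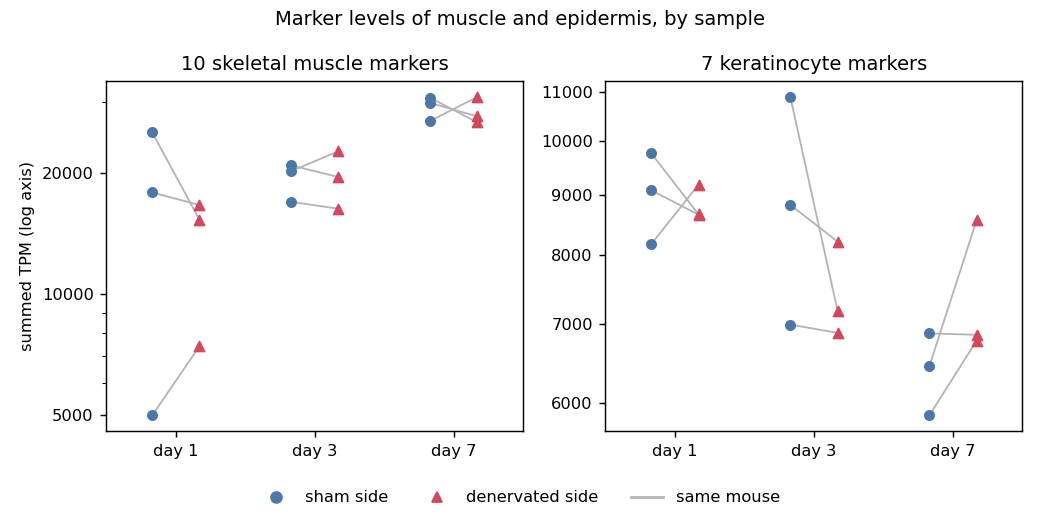
Summed TPM (log axes that do not start at 0) of 10 skeletal muscle fibre markers and of 7 keratinocyte markers in each sample at days 1, 3, and 7, with circles for the sham side, triangles for the denervated side, and a line joining the sides of a mouse. The muscle markers of day 1 replicate 1, at 4995 and 7417, lie below all other samples, and those of day 7, at 26706 to 30906, lie above them.

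Heat shock proteins are molecular chaperones. Hsp70 proteins bind exposed hydrophobic stretches of unfolded proteins in a cycle driven by ATP, DnaJ proteins (also called Hsp40) deliver the clients and stimulate the ATPase, Hsp110 proteins exchange the nucleotide, and Hsp90 takes over clients that are nearly folded. Small heat shock proteins hold unfolding proteins without ATP. Several of them (Hspb2, Hspb3, Hspb6, Hspb7, and Hspb8) are known for high levels in striated muscle, where Hspb8 acts with the exchange factor Bag3 in chaperone-assisted autophagy of damaged filament proteins, and Hspb2 forms complexes with Hspb3. Many, but not all, heat shock genes are induced by heat shock factor 1, which binds inverted repeats of the letters GAA in promoters.

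The sequences upstream of the members that the results turn on are shown first, since the members differ in whether the letters of the heat shock element lie near their start sites. They are RefSeq promoter windows of build GRCm38.p6. Windows were found for 60 of the 74 members, and the 250 bases upstream of each start were searched for the 2-unit element GAANNTTC or TTCNNGAA. Each of these reads the same on both strands, and they overlap where units continue. The element was in a window of 14 of the 60 members (23.3%), against 14.5% of all 27025 genes with a window. These were Hspb1, Hspb3, Hspb6, Hsph1, Hspa1a, Hspa1b, Hspd1, Hspe1, Dnaja1, Dnaja4, Dnajb4, Dnajb6, Dnajc10, and Dnajc27. A run of 3 units was in the windows of Hspd1, Hspe1, and Dnajb6, against 0.514% of all genes. In the lines that follow, 80 upstream bases are given for 5 small heat shock protein genes and for Hspa1a and Hspa1b, from 5′ to 3′ on the strand of the gene. The first base shown is at -224 relative to the start for Hspb3 and at -120 for the others. Capitals mark the element.
Hspb8: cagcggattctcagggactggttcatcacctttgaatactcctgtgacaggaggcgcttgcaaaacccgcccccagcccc
Hspb7: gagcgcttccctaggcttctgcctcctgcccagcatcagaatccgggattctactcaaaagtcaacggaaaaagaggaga
Hspb6: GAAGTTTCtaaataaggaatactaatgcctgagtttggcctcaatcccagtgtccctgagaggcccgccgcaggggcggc
Hspb3: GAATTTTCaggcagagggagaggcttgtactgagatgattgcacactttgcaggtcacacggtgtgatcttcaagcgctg
Hspb1: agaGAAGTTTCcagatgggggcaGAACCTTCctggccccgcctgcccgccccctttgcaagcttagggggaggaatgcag
Hspa1a: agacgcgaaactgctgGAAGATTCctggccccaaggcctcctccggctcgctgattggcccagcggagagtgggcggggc
Hspa1b: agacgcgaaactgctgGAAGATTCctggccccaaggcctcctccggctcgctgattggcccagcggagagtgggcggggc

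On the plus strand, these stretches lie at chr4:141420659-141420738 (Hspb7), chr7:30553181-30553260 (Hspb6, from the second of its RefSeq starts), and chr5:135887799-135887878 (Hspb1). On the minus strand, they lie at chr5:116422905-116422984 (Hspb8), chr13:113663821-113663900 (Hspb3), chr17:34972197-34972276 (Hspa1a), and chr17:34959279-34959358 (Hspa1b). The 250 bases upstream of Hspb8 and Hspb7 did not hold these letters, and those of Hspb6 and Hspb3 did. Those of Hspb1, Hsph1, and Dnaja4 also did, and their log2 fold changes between the sides over all days, given below, were 0.18, 0.48, and -0.32. A link between the element and the direction of change was not tested. The Hspd1 and Hspe1 genes lie head to head and share 1 run of 3 units. The stretches of Hspa1a and Hspa1b differ at 0 of 80 bases, and the transcripts of these neighboring genes are also nearly identical, so the split of reads between them is uncertain. A match describes letters in a window and is not a measured binding site.

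Of the 74 members, 68 were tested in each comparison, since they reached a TPM of 1 in 47% or more of the samples. The 6 others were Hspb9, Dnajb7, Dnajb8, Dnajc22, Dnajc5b, and Dnajc5g, none of which reached a TPM of 1 in any sample, and Dnajc5g was listed at 0 in all 18. The members together made up 0.454% to 0.633% of the summed TPM of a sample. The sides were compared on log2(TPM + 0.5), a scale that understates changes of low genes, in limma fits with a mean-variance trend. The p values carry a Benjamini-Hochberg adjustment over all genes tested, with a threshold of 0.05. Errors after a log2 fold change are standard errors from this fit.

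Over the 3 days together, with a term for the day, 8 of the 68 members differed between denervated and sham samples (limma, Benjamini-Hochberg adjustment), against 3.1% of the 14757 genes tested. Of these, 7 were higher after denervation (1.92% of all genes were) and 1 was lower (1.18% of all genes). The genes that were higher were Hspb8, Hspa1l, Hsph1, Hsp90ab1, Dnajc5, Hspa4, and Dnajb2, and the gene that was lower was Hspb3. When samples were rescaled to the muscle markers, 1 was higher (Hspb8, against 0.478% of all genes) and 1 lower (Hspb3, against 0.554%). Of 19 alternative fits of this comparison, Hspb8 passed in 19, Dnajc5 in 18, Hspb3 and Hsph1 in 13, Hspa4 in 12, Hsp90ab1 in 9, Hspa1l in 6, and Dnajb2 in 5. The log2 fold changes of 49 of the 68 members were above 0, with a median of 0.11, where the median of all genes was 0.01. An unadjusted p under 0.05 was found for 23 of the 68 members, against 14.7% of all genes. When each mouse was its own block, 6 members passed, against 3.5% of all genes. Hsp90ab1 (adjusted p = 0.0505) and Dnajb2 (adjusted p = 0.0873) then missed the threshold of the limma test. Without day 1 replicate 1, 9 members passed, 7 of them among the 8, while Dnajb2 was lost and Hspb6 and Hspb2 were gained, both lower after denervation. Leaving out other mice reduced the count to 2 without day 3 replicate 2, day 3 replicate 3, or day 7 replicate 1, to 3 without day 1 replicate 2 or day 3 replicate 1, and to 5 without day 7 replicate 2. Here and below, the shares of all genes that passed are not given for fits that leave out a mouse.

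Day by day the calls were fewer. At day 1, 0 of the 68 members and 0 of 14776 genes (0%) passed (limma), while 4 members had an unadjusted p under 0.05, against 4.29% of all genes. In the fit with mice as blocks, 0 genes passed as well (limma), and 3 members had an unadjusted p under 0.05, against 6.18% of all genes. At day 3, 2 members passed, against 1.45% of all genes, and both were lower after denervation (0.442% of all genes), namely Hspb6 and Dnaja4. After the rescaling to muscle markers, 1 was lower (Hspb6, against 0.436% of all genes) and 1 higher (Hspb8, against 1.07%). At day 7, 2 members passed, against 1.53% of all genes, and both were higher (1.01% of all genes), namely Hspb8 and Hspb7. An unadjusted p under 0.05 was found for 25 members at day 3, against 14.7% of all genes, and for 16 at day 7, against 12.3%. The median log2 fold change of the members was 0.01 at day 1, 0.13 at day 3, and 0.11 at day 7, beside 0.01, -0.01, and 0.04 for all genes. With 3 mice a day, the counts rested on single mice. They fell to 0 without day 3 replicate 2 or 3, and to 0 without day 7 replicate 1 or 2.

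**Figure D2:**
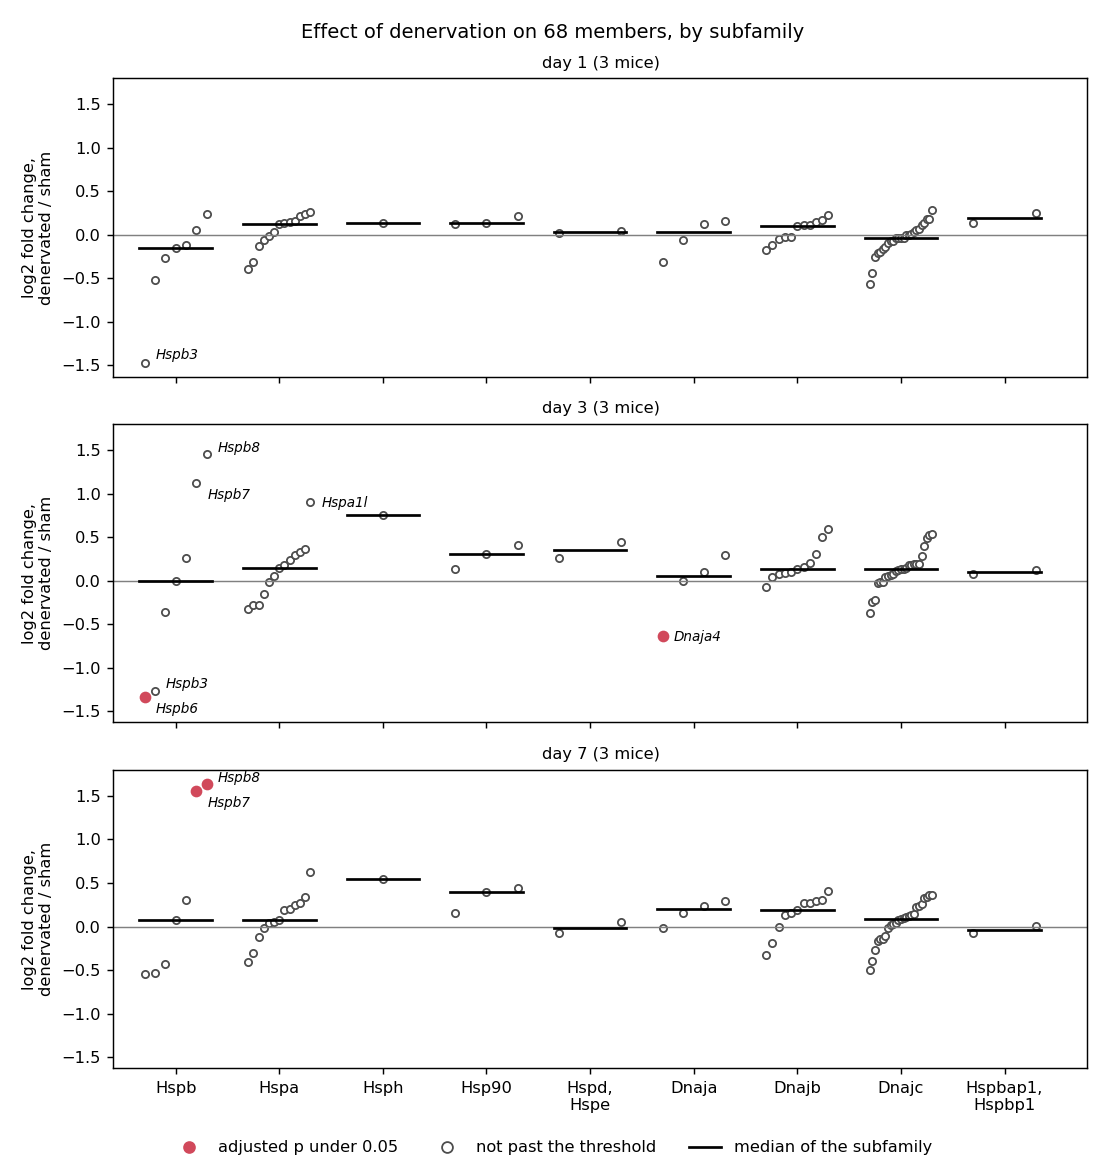
Log2 fold changes (denervated over sham, vertical axis) of the 68 tested members by subfamily (horizontal axis) at days 1, 3, and 7, each from 3 mice. Filled points passed an adjusted p of 0.05, open points did not, and lines are subfamily medians. The Hspb genes spread from -1.33 to 1.45 at day 3, where only Hspb6 and Dnaja4 are filled.

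These are bulk levels, in which fewer cells of a type and less RNA per cell cannot be told apart. Of the 7 tested Hspb genes, Hspb11 included, Hspb8 and Hspb7 rose and Hspb6 and Hspb3 fell in at least 1 comparison of the sides. At day 7, all but Hspb11 had an unadjusted p under 0.05 (12.3% of all genes did), 3 of them with a positive and 3 with a negative log2 fold change. Hspb11 was at 12.9 to 30.8 TPM over all samples, and its difference over all days was 0.07 on the log2 scale (adjusted p = 0.89). The 10 muscle fibre markers did not move together at that day, with 7 of 10 log2 fold changes above 0 and a median of 0.26. Among them Ckm, the muscle creatine kinase, was lower (log2 fold change -1.12 ± 0.13, adjusted p = 0.010) and Neb, which encodes the thin filament protein nebulin, was higher (1.14 ± 0.14, adjusted p = 0.012) at day 7 (limma).

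Hspb8 (chromosome 5, 116408491 to 116422864) rose at day 7 and over all days. At day 1 its TPM was 131, 168, and 158 on the sham side and 162, 155, and 157 on the denervated side of the same mice, and the sides overlapped. At day 3 it was 188, 198, and 178 on the sham side and 329, 705, and 589 on the denervated side. At day 7 it was 160, 158, and 182 on the sham side and 563, 475, and 525 on the denervated side. At days 3 and 7 every denervated sample was above every sham sample, and the sham side stayed between 131 and 198 throughout. Its log2 fold change was 0.06 at day 1 (adjusted p = 0.999), 1.45 at day 3 (adjusted p = 0.071), and 1.64 ± 0.12 at day 7 (adjusted p = 0.0033, limma). Over all days it was 1.05 ± 0.20 (adjusted p = 0.0083), and over the 19 alternative fits its adjusted p was between 0.0051 and 0.044. At day 3 it passed without replicate 1 of that day (1.78, adjusted p = 0.029, limma) and after the rescaling to muscle markers (1.49, adjusted p = 0.0083). When all 18 samples shared 1 estimate of the spread, Hspb8 also passed at day 3 (adjusted p = 0.00089), together with Hsph1, Dnajc5, and Dnajc2, while Hspb6 and Dnaja4 did not.

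The effect on Hspb8 differed between days. It was larger at day 7 than at day 1 by 1.58 ± 0.29 on the log2 scale (interaction term, limma adjusted p = 0.038). Hspb8 was the 1 member that passed this test, against 0.163% of all genes in either direction and 0.129% with a larger value at day 7. In the fit with mice as blocks its adjusted p was 0.075 (limma), and 0 members passed. For day 3 against day 1 the difference was 1.39 (adjusted p = 0.079), and 0 of 68 members passed (limma), against 0.122% of all genes, with 10 members at an unadjusted p under 0.05, where 9.22% of all genes were. Without day 1 replicate 1 the day 3 difference of Hspb8 was 1.51 (adjusted p = 0.049, limma), and that of day 7 was 1.70 (adjusted p = 0.042). Without day 3 replicate 1 the day 3 difference was 1.72 (adjusted p = 0.0038, limma). The day 7 call was lost on leaving out any 1 of day 1 replicate 2, day 1 replicate 3, day 3 replicate 3, and the 3 mice of day 7.

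Hspb7 (chromosome 4, 141420779 to 141425311), also called the cardiovascular small heat shock protein, rose at day 7. On that day its TPM was 106, 83.5, and 95.7 on the sham side and 268, 294, and 276 on the denervated side. These groups did not overlap, and the log2 fold change was 1.55 ± 0.12 (adjusted p = 0.0039, limma). At day 3 the sham samples were spread, at 228, 56.9, and 70.5, against 254, 185, and 202 on the denervated side, and the log2 fold change of 1.12 had an adjusted p of 0.37. Without replicate 1 of that day, whose sham value was the high one, it was 1.60 (adjusted p = 0.036, limma). Of 14 alternative fits at day 3 this was the 1 in which Hspb7 passed, and it leaves out the pair with the high sham value. At day 1 the sham samples were at 32.2, 151, and 250 and the denervated samples at 70.7, 126, and 100, where the lowest value of each side belonged to day 1 replicate 1. Over all days the log2 fold change was 0.84 (adjusted p = 0.29). The difference between the effects at day 7 and day 1, at 1.70 on the log2 scale, had an adjusted p of 0.72.

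Hspb6 (chromosome 7, 30552178 to 30555443), which encodes Hsp20, fell at day 3. On that day its TPM was 542, 429, and 417 on the sham side and 179, 178, and 189 on the denervated side. All denervated samples lay below the sham samples, and the log2 fold change was -1.33 ± 0.13 (adjusted p = 0.0072, limma). At day 7 the TPM was 686, 627, and 508 on the sham side and 392, 398, and 446 on the denervated side. These groups also did not overlap, but the log2 fold change of -0.55 had an adjusted p of 0.17. At day 1 the sham samples were at 96.9, 509, and 650 and the denervated samples at 148, 305, and 241. There the low sham value was that of day 1 replicate 1, the 1 mouse of the 9 in which Hspb6 was higher on the denervated side. Over all days the log2 fold change was -0.80 (adjusted p = 0.16), and without that mouse it was -0.98 (adjusted p = 0.00017, limma). Of 19 alternative fits over all days, this was the 1 in which Hspb6 passed.

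Hspb3 (chromosome 13, 113662896 to 113663676) was lower on the denervated side in 9 of 9 mice. At day 1 its TPM was 6.56, 17.1, and 27.1 on the sham side and 4.80, 5.76, and 4.33 on the denervated side. At day 3 it was 19.3, 27.7, and 27.7 on the sham side and 4.98, 11.4, and 16.7 on the denervated side. At day 7 it was 35.3, 40.6, and 35.1 on the sham side and 26.1, 31.7, and 24.3 on the denervated side. The sides did not overlap on any of the 3 days. The log2 fold change over all days was -1.06 ± 0.25 (adjusted p = 0.028, limma). It was -1.47, -1.27, and -0.43 at days 1, 3, and 7, none of which passed alone, and the effects at day 7 and day 1 differed by 1.04 (adjusted p = 0.77).

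The partner of Hspb3, Hspb2 (chromosome 9, 50751078 to 50752354), was lower on the denervated side in 8 of 9 mice. At day 7 its TPM was 60.8, 57.7, and 57.4 on the sham side and 32.6, 42.3, and 47.3 on the denervated side. The log2 fold change over all days was -0.39 (adjusted p = 0.52), and it was -0.54 (adjusted p = 0.018, limma) without day 1 replicate 1, the mouse with the other direction. Of 19 alternative fits over all days, this was the 1 in which Hspb2 passed. Hspb1, which encodes Hsp27 and is also abundant in epidermis, was at 405 to 823 TPM. Its log2 fold change over all days was 0.18 (adjusted p = 0.28), with 8 of 9 mice higher on the denervated side. For Cryab, the αB-crystallin gene that belongs to this family under another name, the difference was 0.17 on the log2 scale (adjusted p = 0.80).

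**Figure D3:**
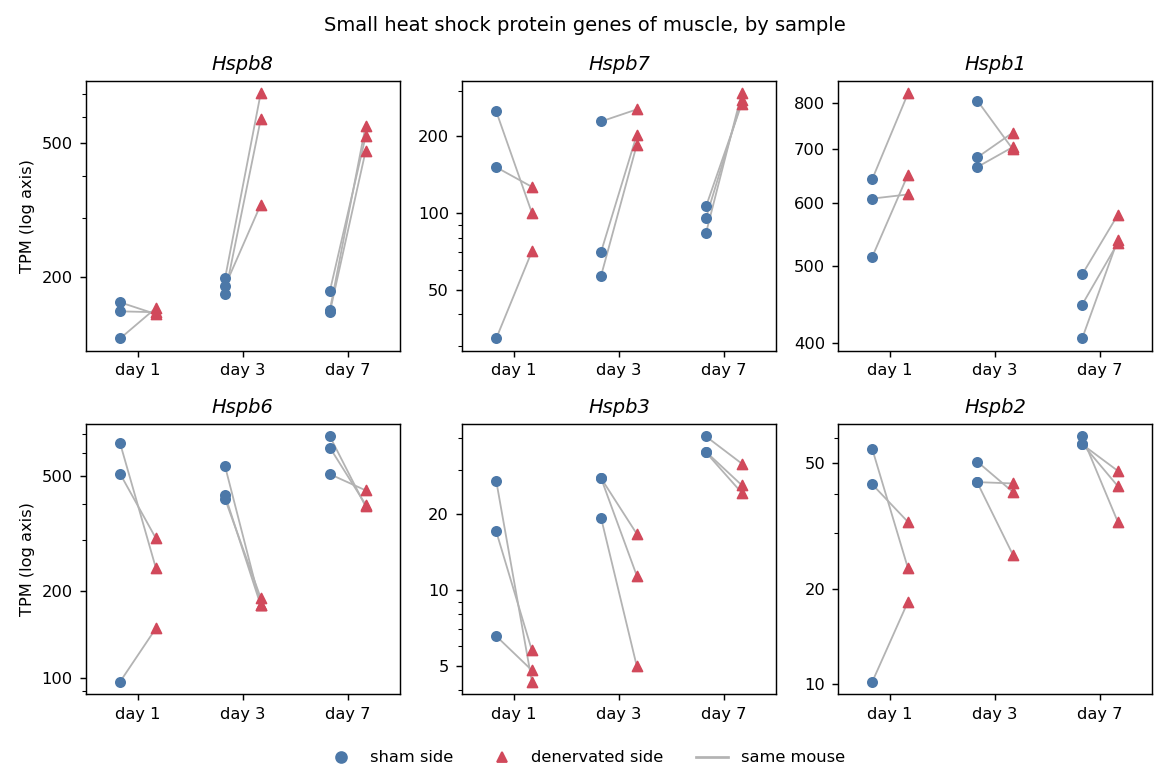
TPM (log axes that do not start at 0) of 6 small heat shock protein genes at days 1, 3, and 7, with circles for the sham side, triangles for the denervated side, and lines joining the sides of a mouse. Hspb8 stays at 131 to 198 on the sham side and reaches 329 to 705 on the denervated side at days 3 and 7, while Hspb3 is lower on the denervated side in all 9 mice.

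In the cytosolic Hsp70 and Hsp90 machinery, Hsph1, Hspa4, Hsp90ab1, and Hspa1l were higher after denervation over all days. Hsph1 (chromosome 5, 149614287 to 149636376) encodes Hsp110. Its TPM at day 3 was 21.9, 27.3, and 25.6 on the sham side and 40.2, 49.6, and 38.0 on the denervated side. At day 7 it was 21.7, 18.9, and 26.9 on the sham side and 37.7, 27.9, and 33.3 on the denervated side. The sides did not overlap on either day. They overlapped at day 1, at 21.6, 17.5, and 18.9 against 18.1, 22.4, and 23.7. The log2 fold change over all days was 0.48 ± 0.11 (adjusted p = 0.019, limma), with 8 of 9 mice higher. At days 3 and 7 alone it was 0.76 (adjusted p = 0.064) and 0.54 (adjusted p = 0.27).

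Hspa4, a further exchange factor of the Hsp110 kind, was higher on the denervated side in 9 of 9 mice. Its TPM ran from 55.0 to 71.9 over the 9 sham samples with a median of 65.7, and from 65.2 to 89.2 over the 9 denervated samples with a median of 79.9. This was a log2 fold change of 0.28 ± 0.06 (adjusted p = 0.020, limma), and it was 0.26, 0.24, and 0.34 at days 1, 3, and 7. Hspa4l, which encodes another exchange factor of this kind, was at 3.99 to 7.61 TPM with a difference of 0.13 on the log2 scale (adjusted p = 0.65).

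Hsp90ab1, the constitutive cytosolic Hsp90, was also higher in 9 of 9 mice. Its TPM was 454 to 702 in sham samples with a median of 639, and 666 to 902 in denervated samples with a median of 766. This was a log2 fold change of 0.29 ± 0.07 (adjusted p = 0.041, limma). Hsp90aa1, the inducible form, was higher in 9 of 9 mice by 0.34 ± 0.10 but missed the threshold (adjusted p = 0.093, limma). The sham samples of both genes were lowest in day 7 replicate 1, at 454 and 44.8 TPM. For Hsp90b1, the form of the endoplasmic reticulum, the difference was 0.14 on the log2 scale (adjusted p = 0.51).

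Hspa8, the constitutive Hsp70, was at 553 to 795 TPM on the sham side and 617 to 990 TPM on the denervated side. It was higher in 9 of 9 mice by 0.25 ± 0.09, which did not pass (adjusted p = 0.14, limma). The stress-inducible pair was lower in level. Hspa1a was at 9.27 to 19.0 TPM and Hspa1b at 26.5 to 50.2 TPM over all samples. At day 3 the log2 fold change of Hspa1a was -0.32 (adjusted p = 0.25), and 3 of 3 mice were lower on the denervated side for both genes. Over all days Hspa1a was at -0.11 (adjusted p = 0.61), and Hspa1b was higher in 5 and lower in 4 of 9 mice.

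The neighboring Hspa1l, a form best known from testis, was low in level but higher after denervation. Its TPM was 3.12, 3.80, and 4.08 on the sham side and 6.59, 9.19, and 6.35 on the denervated side at day 3. It was 5.34, 5.35, and 3.54 on the sham side and 7.57, 8.30, and 6.71 on the denervated side at day 7. The sides did not overlap on these days, and the log2 fold change over all days was 0.56 ± 0.15 (adjusted p = 0.049, limma). Hspa1l starts beside Hspa1a on the opposite strand, and the quantification is not stated to use strand.

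**Figure D4:**
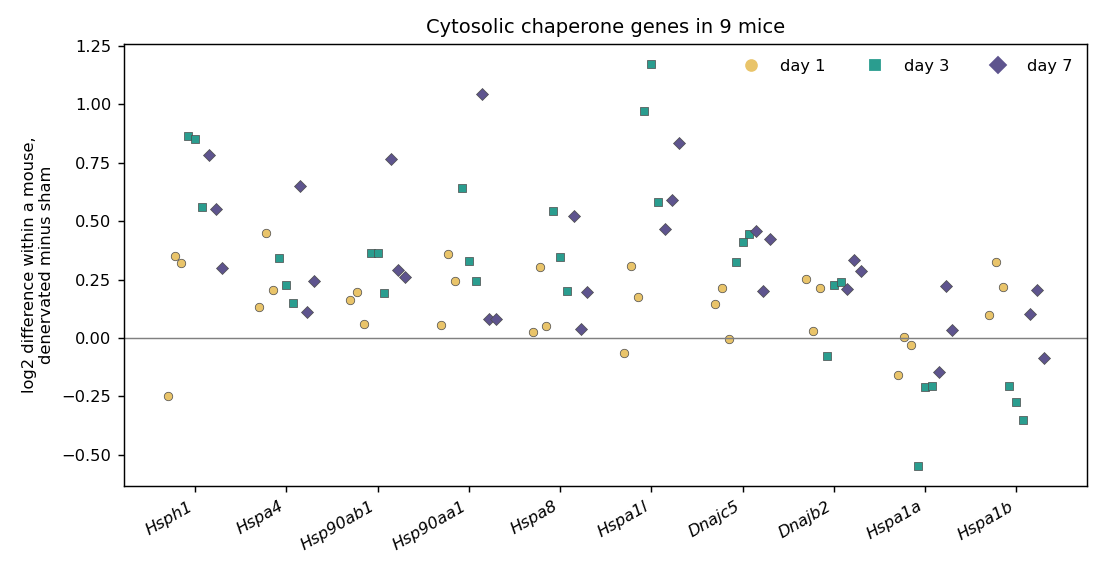
Difference in log2(TPM + 0.5) between the denervated and the sham side of each of 9 mice (vertical axis) for 10 cytosolic chaperone genes (horizontal axis), with 1 point per mouse and symbols for the day. All 9 points lie above 0 for Hspa4, Hsp90ab1, Hsp90aa1, and Hspa8, and points of Hspa1a and Hspa1b lie on both sides of 0.

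The other Hsp70 genes did not pass in any comparison of the sides. Their log2 fold changes over all days were between -0.24 (Hspa12a, a distant relative) and 0.25 (Hspa5), with -0.17 for Hspa12b, 0.13 for Hspa13, -0.12 for Hspa14, and 0.02 for Hspa2 (adjusted p = 0.97). Hspa2, a form known from the testis, was at 10.6 to 23.0 TPM over all samples and higher on the denervated side in 5 of 9 mice. In the endoplasmic reticulum, Hspa5 (BiP) was at 123 to 174 TPM on the sham side and 130 to 232 TPM on the denervated side, and 7 of 9 mice were higher (adjusted p = 0.18, limma). Its co-chaperones Dnajb9, Dnajb11, and Dnajc3 had log2 fold changes of 0.28, 0.16, and 0.10 over all days (adjusted p = 0.28, 0.33, and 0.65). For Dnajb9 the value at day 3 was 0.59 (adjusted p = 0.22). The endoplasmic reticulum stress element was in the upstream windows of Hspa5, Hsp90b1, and Dnajc3, against 0.13% of all genes with a window. It was searched on both strands as CCAAT and CCACG with 9 bases between them. Of 16 other genes of the unfolded protein response, 1 passed over all days, against 3.1% of all genes. This was Sdf2l1, whose protein acts with BiP, at 0.36 ± 0.09 (adjusted p = 0.045, limma), and its adjusted p was 0.076 with the mouse as a block. Other genes of this list went both ways. Ddit3 was at -0.47 (lower in 8 of 9 mice) and Herpud1 at -0.15 (lower in 7 of 9), while Xbp1 (0.22) and Manf (0.24) were higher in 9 of 9.

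In mitochondria, the chaperonin subunits Hspd1 and Hspe1 and the Hsp70 gene Hspa9 did not pass in any comparison. Hspe1 was at 138, 161, and 192 TPM on the sham side and 207, 259, and 198 TPM on the denervated side at day 3. These groups did not overlap, and the log2 fold change was 0.44 (adjusted p = 0.29). For Hspd1 it was 0.27 (adjusted p = 0.24) and for Hspa9 0.33 (adjusted p = 0.19) on that day. At day 7 the sides overlapped for Hspe1 and Hspd1. Of 9 genes of mitochondrial protein quality control, 0 passed over all days (limma), and 3 had an unadjusted p under 0.05, against 14.7% of all genes.

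Of the DnaJ genes, 40 were tested, and 2 were higher and 0 lower over all days, where 1.92% of all genes were higher and 1.18% lower. Dnajc5 (chromosome 2, 181520485 to 181555133) encodes cysteine-string protein, a co-chaperone of Hsp70 on synaptic and secretory vesicles. At day 3 its TPM was 21.0, 19.2, and 18.5 on the sham side and 26.4, 25.6, and 25.3 on the denervated side. At day 7 it was 17.7, 18.3, and 18.5 on the sham side and 24.4, 21.2, and 25.0 on the denervated side. The sides were separate on both days and overlapped at day 1, at 17.8, 17.9, and 18.6 against 19.8, 20.8, and 18.5. The log2 fold change over all days was 0.29 ± 0.05 (adjusted p = 0.0063, limma). Dnajb2, a co-chaperone with ubiquitin-interacting motifs, was higher in 8 of 9 mice by 0.19 ± 0.05 (adjusted p = 0.042, limma).

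Dnaja4 (chromosome 9, 54698873 to 54716315), a cytosolic co-chaperone, fell at day 3. Its TPM on that day was 30.6, 32.2, and 29.6 on the sham side and 20.2, 20.3, and 18.6 on the denervated side. At day 1 it was 22.3, 27.3, and 26.5 against 20.2, 19.9, and 20.6, and at day 7 it was 45.3, 42.5, and 24.8 against 37.7, 37.4, and 32.8. The sides were separate at days 1 and 3 and overlapped at day 7. At day 3 the log2 fold change was -0.63 ± 0.09 (adjusted p = 0.025, limma), and over all days it was -0.32 (adjusted p = 0.14). Without day 7 replicate 3, the 1 mouse of that day with the higher value on the denervated side, the value over all days was -0.41 (adjusted p = 0.0051, limma). Of 19 alternative fits over all days this was the 1 that passed, and it leaves out the mouse that went the other way. The other Dnaja genes, which encode general cytosolic (Dnaja1, Dnaja2) and mitochondrial (Dnaja3) co-chaperones, had log2 fold changes of 0.13, 0.17, and 0.13 over all days.

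Among the more abundant DnaJ genes, Dnajc7 was at 185 to 224 TPM in the group means, with a log2 fold change over all days of -0.08. It was 0.17 for Dnajb6, which was higher in 9 of 9 mice (adjusted p = 0.14, limma), 0.06 for Dnajc8, and -0.20 for Dnajc19, which encodes a protein of the mitochondrial inner membrane. For Dnajb1, a cytosolic co-chaperone, it was 0.07 (adjusted p = 0.79) and changed to 0.78 (adjusted p = 0.36) when the more abundant of its transcripts, Dnajb1-202 with 53.6% of its summed TPM, was taken alone (the remaining 46.4% came from Dnajb1-201). Dnajc15, which encodes another mitochondrial protein, was at 45.6 to 95.5 TPM on the sham side and 45.7 to 90.2 TPM on the denervated side, a difference of -0.04 on the log2 scale over all days (adjusted p = 0.94). Dnajc12, a low gene, had median TPM of 6.63 on the sham side and 4.97 on the denervated side. Its log2 fold change over all days was -0.27 (adjusted p = 0.52, limma). The log2 fold change was 0.23 for Dnajc21 (adjusted p = 0.34) and 0.18 for Dnajc18, another low gene (adjusted p = 0.36). For Dnajb5 it was 0.24, with 7 of 9 mice higher (adjusted p = 0.63, limma). The log2 fold changes of the 25 tested Dnajc genes ran from -0.27 to 0.29, and 15 were above 0.

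None of the listed partners and relatives of these chaperones passed over all days. Of 12 exchange factors and regulators of Hsp70, 0 passed over all days (limma), 10 log2 fold changes were above 0, and 2 had an unadjusted p under 0.05 (14.7% of all genes did). The nearest was Bag3, the partner of Hspb8, at 0.30 ± 0.08 (adjusted p = 0.058). Of 14 Hsp90 co-chaperones, 0 passed (limma), 8 were above 0, and 4 had an unadjusted p under 0.05. The cytosolic chaperonin and prefoldin fold actin and tubulin, and of their 13 tested subunits 0 passed (limma), 12 were above 0 with a median of 0.20, and 7 had an unadjusted p under 0.05. Cct3 was nearest at 0.34 ± 0.09 (adjusted p = 0.051). Of 5 tested heat shock transcription factors and their binding proteins, 0 passed (limma) and 0 had an unadjusted p under 0.05, with Hsf1 at 0.05 on the log2 scale. Of 6 tested relatives outside the symbol rule, among them Cryab, 0 passed (limma) and 0 had an unadjusted p under 0.05. Bag3, Cct3, and Hsf1 were chosen for mention after their values were seen.

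Some single markers of cells other than muscle also differed between the sides. The summed TPM of 6 neutrophil markers was 1356 to 2658 on the denervated side and 43.9 to 244 on the sham side at day 7, and S100a8 passed over all days at 3.62 ± 0.67 (adjusted p = 0.0058, limma). This sum was carried by S100a8, at 1297 to 2036 TPM on the denervated side against 40.8 to 180 on the sham side, and by S100a9, at 55.8 to 605 against 0.890 to 58.7, and S100a9 did not pass over all days (1.85, adjusted p = 0.46). The other 4 markers had group means of 0.0801 to 4.81 TPM at day 7. Over all days Csf3r was at 0.12, Cxcr2 at -0.0061, and Retnlg at 0.54 on the log2 scale, none of which passed, and Ly6g was too low to be tested. The summed macrophage markers were 178 to 301 against 93.0 to 216 at day 7, and overlapped. All 7 hair follicle sheath markers had negative log2 fold changes at day 3, with a median of -1.15, and 0 of 7 passed (limma), 4 at an unadjusted p under 0.05, against 14.7% of all genes. Of 8 immediate early genes, Atf3 and Jun were higher over all days, at 1.53 ± 0.17 (adjusted p = 0.00010) and 0.74 ± 0.13 (adjusted p = 0.0038). The cells that held S100a8 were not identified. The part of these genes and of other cells in the chaperone values was not tested.

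Days were also compared within a side. On the sham side 0 of 68 members differed between day 3 and day 1 (limma), against 0.0818% of all genes, with 7 members at an unadjusted p under 0.05 (10.9% of all genes). Between day 7 and day 1, 0 members differed (limma), against 0.00682% of all genes, with 10 at an unadjusted p under 0.05 (14.4% of all genes). On the denervated side 13 members differed between day 3 and day 1, against 11.6% of all genes, 12 of them higher at day 3 (8.04% of all genes) and 1 lower (3.54%). Between day 7 and day 1, 20 members differed, against 21.3% of all genes, 17 of them higher at day 7 (13.6%) and 3 lower (7.65%). Rescaled to an equal sum, 10 were higher (7.98% of all genes) and 5 lower (13.4%) at day 7. Of the 10 muscle markers, 2 were higher at day 3 and 7 were higher at day 7 on the denervated side. Their median log2 fold change for day 7 against day 1 was 1.35 on the denervated side and 1.17 on the sham side, where the medians of the members were 0.12 and 0.02. The amount of muscle in the biopsies and the day cannot be told apart here.

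On the denervated side, the log2 fold change at day 7 against day 1 was 2.35 ± 0.36 for Hspb3, 1.71 ± 0.25 for Hspb8, 1.53 ± 0.21 for Hspb7, and 1.46 ± 0.23 for Dnajb5. It was 1.05 ± 0.26 for Dnajc12, 1.00 ± 0.20 for Dnajc27, 0.89 ± 0.23 for Hspb6 and for Hspa1l, and 0.81 ± 0.09 for Dnaja4. The 8 others that were higher, at 0.42 to 0.75, were Hspa12b, Dnajc18, Hsph1, Dnajb4, Dnajc21, Hspa12a, Dnajc10, and Dnaja3. At day 3 against day 1 it was 1.70 ± 0.25 for Hspb8, 1.14 ± 0.23 for Dnajb5, 1.13 ± 0.21 for Hspb7, and 0.98 ± 0.16 for Hsph1. The 8 others, at 0.38 to 0.87, were Hspa12b, Hspa1l, Dnajc27, Dnajc21, Dnaja3, Dnajc18, Dnajc10, and Dnajc5. Hspa1b was lower at both days, at -0.37 and -0.57, and Hspa1a (-0.44) and Hspa14 (-0.47) were lower at day 7. Sham-side values at day 7 against day 1, none of which passed, were 1.31 for Hspb3, 0.92 for Hspb6, and 0.88 for Dnajb5. They were 0.72 for Dnajc27, 0.52 for Dnaja4, 0.46 for Dnajc12, 0.40 for Hspa1l, 0.13 for Hspb8, and -0.18 for Hspb7. For Hspa1a, Hspa1b, and Hspa14 they were -0.54, -0.43, and -0.32. The change from day 1 to day 7 differed between the sides past the threshold for Hspb8 alone. On the denervated side, rescaling the samples to the muscle markers moved the median of all genes at day 7 against day 1 by -1.29, to -1.26, and that of the members to -1.20. Under it 53 members differed, 52 of them lower, where 78.1% of all genes were lower, and 1 higher (1.09% of all genes), which was Hspb3 at 1.05. At day 3 against day 1 the rescaling moved the median of all genes by -0.66, and 1 member passed, Hspb6, which was lower at -0.97 (8.18% of all genes were lower). Without day 1 replicate 1, 10 members differed at day 3 and 14 at day 7, of which 8 and 14 were among those above. The counts also moved by over 1.5 times on leaving out day 1 replicate 2 or 3, any mouse of day 3, or day 7 replicate 1 (3 to 8 members at day 3 against day 1), and day 7 replicate 1 (11 members at day 7 against day 1).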

How the data were processed

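RNA sequencing was done on the denervated and the sham side of 9 mice (18 samples, 6 groups of 3). The authors made base calls with bcl2fastq 2.17.1.14, removed duplicate reads, trimmed, pseudoaligned to mouse cDNA of GRCm38 with kallisto 0.43.1, and used sleuth. Deposited values are a signal, TPM per transcript after the authors' normalization between samples, so the sums of samples differ (833186 to 1143839). The tests had been chosen for plain TPM and were kept. Depth was estimated from values of long transcripts, of which 73.5% to 84.7% per sample lay within 0.1 of a whole read (20% if spread evenly).

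Of 113194 transcripts, 98.5% matched GENCODE release M21 by identifier, with 99.5% of the summed values. Gene sums with a TPM of 1 in 47% of the samples of a comparison were fitted on log2(TPM + 0.5) with limma 3.58.1 in R 4.3.3, with its mean-variance trend, and p was adjusted over all genes (Benjamini-Hochberg). All days together had a term for day, each day was fitted alone, and effects of different days were compared by interaction terms. Within each side, days were compared in fits of its 9 samples. The fit was tested on simulated data. Sides of 1 mouse share an animal, and their deviations from the group means correlated at 0.13 to 0.51 in all 9 mice, so a second fit had the mouse as a block. Alternatives changed the pseudocount, minimum, scaling, choice of transcript, trend, pooling, and mice. Python 3.11.15, numpy 2.4.6, pandas 2.3.3, and matplotlib 3.10.9 were used for the rest, with RefSeq promoter windows.

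The members and lists were chosen with earlier results of these data known. Named genes were members past 0.05 in any of 10 comparisons, all members other than DnaJ genes, the 4 highest and the 2 most changed of each DnaJ class, and list genes past 0.05 between sides. Dnajc2, Cryab, Bag3, Cct3, Hsf1, Ddit3, Herpud1, Xbp1, and Manf were named after their values were seen.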

Additional observations from a re-analysis of the deposited data

Results flagged for a closer look

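Hspb8, the partner of Bag3 in chaperone-assisted autophagy, was singled out because its difference between denervated and sham sides was not the same on all days. The difference was 0.06 on the log2 scale at day 1 and 1.64 at day 7, and the effects differed by 1.58 in a limma interaction test (adjusted p = 0.038). Over the alternatives that adjusted p ran from 0.0062 to 1.00, and 9 of 19 alternatives stayed past the threshold. The denervated side was higher in 3 of 3 mice at day 7.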

How the results depend on the processing

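With 3 mice a day, counts of members that passed rest on few animals. Leaving out 1 mouse at a time gave 2 to 9 members over all days (8 with all mice), 0 to 3 at day 3 (2), and 0 to 2 at day 7 (2). It gave 0 to 1 for the effect at day 3 against day 1 (0), 0 to 1 at day 7 against day 1 (1), 3 to 14 on the denervated side at day 3 against day 1 (13), and 11 to 20 at day 7 against day 1 (20). In the pairing by mouse (replicate block), 6 members passed over all days and 0 for the effect at day 7 against day 1, while the counts at days 1, 3, and 7 were as without it. A single fit of all 18 samples gave 4 members at day 3, of which 0 were among the 2. Taking only the most abundant transcript of each gene gave 3 over all days and 0 for the effect at day 7 against day 1. Rescaling to an equal sum gave 0 for that effect and 4 on the denervated side at day 3 against day 1. Rescaling to the muscle markers gave 2 over all days, 0 for that effect, and 1 and 53 on the denervated side at days 3 and 7 against day 1. This rescaling moved the median of all genes by -0.66 at day 3 against day 1 and by -1.29 at day 7 against day 1 on that side, and by 0.15 between the sides at day 1. With the median of all genes then at -0.63 at day 3 against day 1, these members had values below 0 that had been above it, and all lay above that median (Dnajc5 -0.30, Dnaja3 -0.17, Dnajc18 -0.16, Dnajc10 -0.28, and Dnajc21 -0.077). At day 7 against day 1, with the median of all genes at -1.26, the same held for Dnaja3 (-0.92), Hspa1l (-0.35), Dnajc27 (-0.24), Dnajc18 (-0.61), Hspa12a (-0.72), Dnajc10 (-0.89), Dnajb4 (-0.76), Hsph1 (-0.73), Dnaja4 (-0.53), Dnajc12 (-0.21), Hspb6 (-0.47), Dnajc21 (-0.77), and Hspa12b (-0.49). In the comparisons of the sides, leaving out 1 mouse took Hspb8 at day 1 (0.058) to between -0.062 and 0.14, Hspa2 over all days (0.02) to between -0.026 and 0.057, and Dnajc15 over all days (-0.04) to between -0.10 and 0.022. Taking only the most abundant transcript changed the sign of Dnajc12 (0.061) and Hspb11 (-0.12) over all days, and no other of the log2 fold changes recomputed for members changed sign under these alternatives. The counts at day 1 and on the sham side were 0 under all alternatives. Of the subfamily medians, 521 moved by less than the spread between mice and 28 by more. The minimum TPM of 1 left 6 members without a test in the main fit. Apart from the rescaling, the cause of these changes was not tested. Except where printed in the Results, the share of all genes that passed is not given for these alternative fits. The counts therefore do not show whether the members moved with all genes or apart from them.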

Other observations

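Some chaperone genes were measured through several transcripts. Of the summed TPM of Hspb6, 91.4% came from Hspb6-201, while Hspb2-202 held 32.4% of Hspb2. Hsph1 was split between Hsph1-208, which is annotated as a retained intron (40.3%), Hsph1-201 (33.9%), and Hsph1-211 (22.5%). Hspa8 was split between Hspa8-202 (58.7%) and Hspa8-201 (39.6%). At day 7 the mean TPM of Hspa8-201 was 249 on the sham side and 365 on the denervated side, and that of Hspa8-202 was 408 and 410, a difference that was not tested.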
